A study of Mus musculus with 2 samples.

Results

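The Bcl2 family decides whether a cell under stress commits to apoptosis through its mitochondria, and 10 of its genes were read in mouse cavernous pericytes kept in high or normal glucose. They were the anti-apoptotic Bcl2, Bcl2l1 and Mcl1, the pore-forming effectors Bax, Bak1 and Bok, and the BH3-only genes Bid, Bad, Bbc3 and Bcl2l11. The members were listed by name and found through the RefSeq accession of each array probe. This gave 13 of the 27509 probes that an accession named, and 10 of 20887 named genes. All 10 were measured, meaning well above background with no saturated spot in either pool, as were 14176 genes in all.

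The cells were primary pericytes, which sit around capillaries and other small vessels, taken from the penis cavernous tissue of C57BL/6 animals. One group was kept in high glucose, labelled 30 mmol, and the other in normal glucose, labelled 5 mmol, both for 72 h. Both groups had been grown in DMEM with 20% fetal bovine serum, antibiotics and human PEDF, a growth factor, at 10 nM. For each group RNA of 3 samples was pooled and hybridised to 1 single-colour Agilent array. With 1 array per group no difference has a replicate check, no p-value can be given, and every comparison is between these 2 pools. An osmotic control is not used here.

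In this family the anti-apoptotic proteins hold the effectors in check on the outer mitochondrial membrane. BH3-only proteins sense damage or lost survival signals and either block the guardians or activate the effectors. Once active, Bax and Bak1 permeabilise the membrane and cytochrome c reaches the cytosol, where it starts the caspase cascade. Several of these proteins are controlled mainly after transcription, by phosphorylation, cleavage or rapid turnover, so their mRNA is only one part of their regulation. In diabetic erectile tissue, loss of pericytes and smooth muscle by apoptosis has been a subject of study.

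The arrays had 57.6% of 59305 gene spots well above background in high glucose and 56.3% in normal glucose, with 0 saturated. The processed signal is a linear brightness from which the scanner software had subtracted background. Here both arrays were scaled to a common 75th percentile, which raised every probe's log2 ratio (high over normal glucose) by 0.08, and the scaled signals are given below. Of the pericyte markers, 9 of 10 were measured, with summed scaled signals of 111882 in high and 115301 in normal glucose, and Kcnj8 did not clear background in either pool. All 5 fibroblast markers were also measured, summing to 223885 in high and 231004 in normal glucose, so these markers do not tell the cell types apart. Of the fibroblast ratios 1 was above 0 and 4 below, with Fap lowest at -0.37. Among endothelial markers 3 of 6 were measured, with Cdh5, Tek and Cldn5 not well above background in either pool, and the measured ones summed to 7417 in high and 7331 in normal glucose. Such sums follow the brightest probe: Kdr held 7275 of the endothelial sum in high glucose, while the dim Vwf had a log2 ratio of -0.53 and Pecam1 one of 0.17. Among the pericyte markers the dim Rgs5 had 0.58 and Abcc9 -0.45. Of 6 immune markers the 5 found on the array were measured, summing to 9682 in high and 8591 in normal glucose. All 5 immune ratios were above 0, but from median pixels Ptprc gave -0.20 and Adgre1 -0.003, and 1 other Csf1r probe gave -0.13. All 5 smooth muscle markers were measured too, summing to 647252 in high and 633174 in normal glucose, with ratios from 0.02 to 0.22. The 4 of 5 Schwann cell markers measured had ratios from -0.75 to -0.04. Measured as well were 2 of 5 epithelial markers, at 0.23 and 0.42, and 2 of 4 adipocyte markers, at -0.27 and 0.26. The part of these cells in the results was not tested. In bulk RNA a change in the share of a cell type and a change in RNA per cell cannot be told apart.

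Bax was the member that differed most, and its promoter is shown for that reason beside that of Mcl1, the member furthest on the other side. The sequences come from RefSeq on GRCm38.p6, 5′ to 3′, from 250 bases before to 50 bases after the gene's start. Bax lies at chr7:45466849-45467148 on the minus strand and Mcl1 at chr3:95658471-95658770 on the plus strand. Capitals mark matches on either strand to the letters CACGTG (an E-box) and GGGCGG (a GC-box) and to the p53 half-site.
Bax: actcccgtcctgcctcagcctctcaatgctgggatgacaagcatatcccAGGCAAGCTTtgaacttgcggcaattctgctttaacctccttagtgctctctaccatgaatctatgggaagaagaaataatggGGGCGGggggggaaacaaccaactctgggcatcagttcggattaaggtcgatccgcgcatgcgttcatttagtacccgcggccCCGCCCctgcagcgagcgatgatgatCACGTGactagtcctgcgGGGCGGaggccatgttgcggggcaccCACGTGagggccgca
Mcl1: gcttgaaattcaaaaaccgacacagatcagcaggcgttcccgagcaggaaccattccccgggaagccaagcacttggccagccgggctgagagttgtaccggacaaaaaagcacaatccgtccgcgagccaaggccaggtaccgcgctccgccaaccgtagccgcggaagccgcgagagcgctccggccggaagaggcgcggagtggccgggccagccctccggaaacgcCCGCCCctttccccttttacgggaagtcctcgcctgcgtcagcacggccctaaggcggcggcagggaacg

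The Bax window held 2 E-box matches, starting at bases 242 and 286 of the window, 3 GC-box matches and 1 p53 half-site match at bases 50 to 59. The Mcl1 window held 1 GC-box match at bases 231 to 236 and neither of the other motifs. Over the 16 promoter windows listed for the 10 members, the p53 half-site matched in Bax only, 1 window or 6.25%, against 8.36% of all 32851 promoter windows. The E-box matched in Bax and in 1 of 3 windows of Bbc3, 12.5% of the members' windows against 7.15% of all. The GC-box matched in 11 windows from 8 members, 68.8% against 35.7% of all, and TATAAA matched on neither strand in any of the 16. No marked matches overlap in the windows shown. The GC content of these windows ran from 49.3% to 78%, against a median of 52.7% over all windows. Such matches describe letters in a window and are neither binding sites nor causes.

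Among the effectors, Bax, which oligomerises into the pore of the outer membrane, had a scaled signal of 37506 in high glucose and 28501 in normal glucose. Bax was 1.32-fold higher in high glucose, a log2 ratio of 0.40. Before scaling, its processed signals were 36476 in high and 29306 in normal glucose, so the direction does not rest on the scaling. Bak1, which forms the same kind of pore, had 19991 in high and 19559 in normal glucose, a log2 ratio of 0.03. Bok, the third and least studied effector, had 3004 in high and 2877 in normal glucose, a log2 ratio of 0.06. Bax was thus apart from both other effectors, whose ratios were close to 0.

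Bax was also the only one of the 10 members to differ by at least 1.2-fold in either direction, where 12.3% of all measured genes did so. By direction, 6.82% of measured genes were at least 1.2-fold higher and 5.5% at least 1.2-fold lower, so 1 member higher and 0 lower is a share near the background. These calls split with the scaling: 967 genes were higher and 779 lower here, and 709 higher and 1190 lower with arrays centred on their medians. No member differed by 1.5-fold, where 1.59% of measured genes were at least that much higher and 1.19% lower (2.78% in all), or by 2-fold, where 0.487% were higher and 0.416% lower (0.903% in all).

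The place of Bax was less ordinary among genes of like brightness. Dim probes vary more on these arrays, and 3079 genes had a mean scaled signal of at least 8192. Of these 23 genes, or 0.747%, had a ratio at least as high as that of Bax, counting Bax itself. Over all measured genes 491, or 3.46%, did. In the plot of ratio against brightness Bax stands above the dense band of bright genes, whereas the 9 other members lie within the spread of genes of their own brightness.

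**Figure D1:**
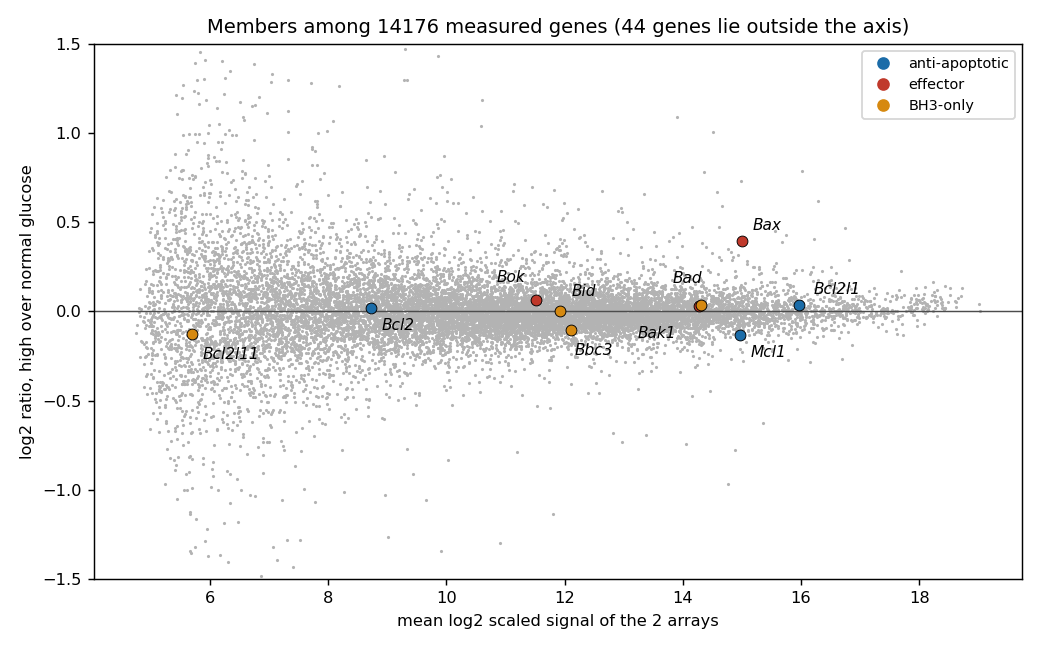
Log2 ratio (high over normal glucose) against the mean log2 scaled signal of both arrays for 14176 measured genes (grey; 44 lie beyond the axis limit of 1.5), with the 10 members coloured by role. Bax, with a ratio of 0.40, lies above most genes of its brightness, and the remaining members lie between -0.13 and 0.06.

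The error of the Bax value could be read only within an array. Probes printed several times on each array showed how much a spot's log2 ratio varies: the median SD was 0.03 over 64 such probes at signals of 8192 or more, and 0.20 over 38 probes below 128. The scanner software's own error model is wider and gave each Bax signal an error of 10% of its value. Combined over both arrays this is an error of 0.20 on the log2 ratio, so the Bax ratio was 1.94 times its modelled error. No other member's ratio exceeded its modelled error, the next being Mcl1 at 0.65 times. Neither error includes the spread between cultures.

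The spot itself gave a like value from its raw pixels. Its median pixel was 35434 in high and 27537 in normal glucose over local backgrounds of 44 and 42, and the median pixel signal minus background gave a log2 ratio of 0.43. Dim spots within 2 rows and columns of it were shifted by 0.21 on the log2 scale in the same direction. Over the other member probes this shift ran from -0.03 at Bbc3, with a ratio of -0.10, to 0.42 at the brighter Bad probe, with 0.04. The part of this shift in the Bax ratio was not tested. The array carries 1 Bax probe, printed once, so no second probe could be set beside it. For genes with a second measured probe at a scaled signal of 512 or more, the ratios of both probes differed by a median of 0.06 and by up to 0.26 in 95% of 1841 genes.

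**Figure D2:**
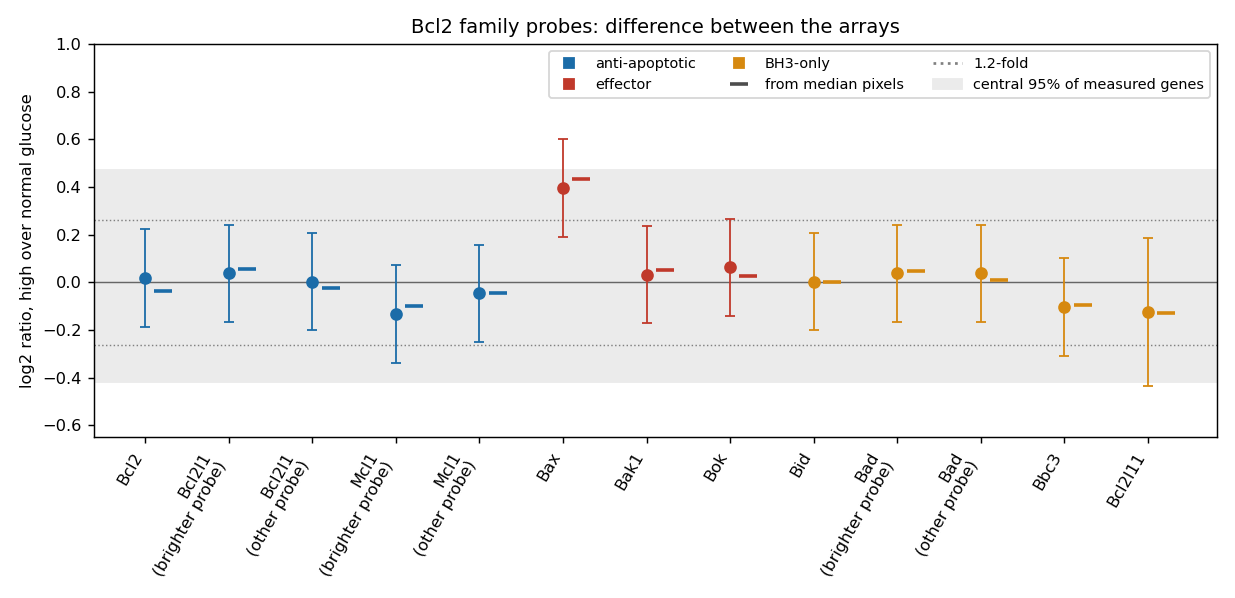
Log2 ratio (high over normal glucose) for each of the 13 member probes, with the scanner software's modelled error as bars and the value from median pixels as a dash. The grey band spans the central 95% of all measured genes, from -0.42 to 0.47, and dotted lines mark 1.2-fold; only the Bax point lies beyond a dotted line.

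Of the anti-apoptotic members, Mcl1, a short-lived guardian that binds Bak1 and several BH3-only proteins, was the lowest of all 10. Its brighter probe had 30441 in high and 33383 in normal glucose, a log2 ratio of -0.13. Its other probe had 8272 in high and 8539 in normal glucose, a log2 ratio of -0.05. Both probes were on the same side. Both ratios were smaller in size than the modelled error of 0.20 and larger than the repeat-spot SD of 0.03 at that brightness. Among genes of at least 8192, 4.94% had a ratio as low as the brighter Mcl1 probe, and among all measured genes 14.8% did.

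Bcl2, the founding member of the family, had 425 in high and 420 in normal glucose, a log2 ratio of 0.02. Its probe carries the accession NM_177410, 1 of 2 RefSeq transcripts listed for Bcl2, and the other, NM_009741, was on no probe here. Bcl2l1, whose main product in most tissues is the guardian Bcl-xL, had 64833 in high and 63194 in normal glucose at its brighter probe, a log2 ratio of 0.04. Its other probe had 600.04 in high and 599 in normal glucose, a log2 ratio of 0.003. Both genes' ratios were far below the modelled error of 0.20 or more. Relative to the median of all genes, Bcl2 lay 0.02 and Bcl2l1 0.04 higher.

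The BH3-only members were all below 1.2-fold. Bid, which links death receptors to mitochondria once caspase-8 has cleaved it, had 3901 in high and 3894 in normal glucose, a log2 ratio of 0.002. Bad, which binds Bcl2 and Bcl-xL unless survival kinases phosphorylate it, had 20559 in high and 20021 in normal glucose, a log2 ratio of 0.04. The other Bad probe had 839 in high and 817 in normal glucose and gave 0.04 as well. These 2 genes thus gave nearly the same signal on both arrays.

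Bbc3, also called Puma, is a strong killer protein induced by p53, and it had 4262 in high and 4580 in normal glucose. Its log2 ratio was -0.10, or 1.07-fold lower in high glucose. In size this is below its modelled error of 0.20 and above the repeat-spot SD of 0.04 at that brightness. Bcl2l11, known as Bim and induced by FoxO factors on loss of growth factors, had 49.5 in high and 53.9 in normal glucose. Its log2 ratio was -0.13, but this probe was dim, with a modelled error of 0.31 and a repeat-spot SD of 0.20 at that brightness, and 33.6% of measured genes below 128 had a ratio as low. Its probe carries 1 of 5 curated transcripts of Bcl2l11, so a shift between transcripts was not read. The same holds for Bbc3 with 1 of 6, Bcl2l1 with 1 of 5 and Bad with 1 of 2. The ratios of Bbc3 and Bcl2l11 were below 0 and that of Bax above 0, although all 3 encode pro-apoptotic proteins.

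**Figure D3:**
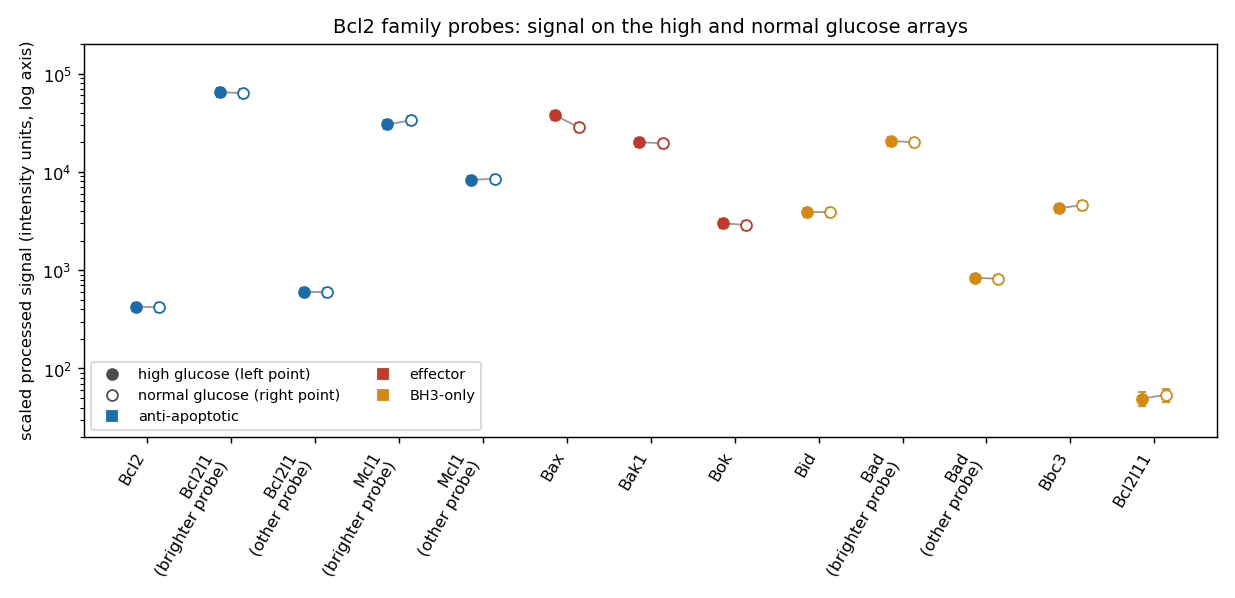
Scaled processed signal (intensity units, log axis) of each member probe on the high glucose array (filled, left) and the normal glucose array (open, right), with the scanner software's modelled error as bars. Only Bax shows a visible step, with 37506 in high and 28501 in normal glucose; brightness depends on the probe, so heights of different probes are not comparable.

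Set by role, the 7 pro-apoptotic members had a median log2 ratio of 0.03, with 5 ratios above 0 and 2 below, and the 3 anti-apoptotic members had a median of 0.02, with 2 above and 1 below. Over all measured genes the median was -0.007, with 47% of ratios above 0 and 53% below. The pro-apoptotic median minus the anti-apoptotic median was 0.01, and 0.063 when read from median pixels. Within the pro-apoptotic side the effectors had a median of 0.06 and the BH3-only members one of -0.05. Bak1, Bok, Bid, Bad and both Bcl2 and Bcl2l1 lay within 0.07 of 0. Scaling shifts all genes alike, and the median of all genes was -0.07 with arrays centred on their medians and -0.09 with no scaling between arrays. Bak1, Bid, Bad, Bcl2 and Bcl2l1 were below 0 under both, and Bok without scaling. A like shift of all genes cannot move a gene across their median, so all 6 were above that median in each.

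The balance of Bax against each guardian does not depend on scaling a whole array, because the shift cancels. The log2 ratio of Bax exceeded that of Bcl2 by 0.38, a 1.30-fold change in the Bax to Bcl2 signal ratio in high glucose. Here Bcl2 was read by 1 probe, which carries 1 of its 2 listed transcripts. It exceeded that of Bcl2l1 by 0.36 and that of Mcl1 by 0.53, the second a 1.44-fold change. The modelled error of each such difference was 0.29, so those against Bcl2 and Mcl1 were 1.31 and 1.83 times it. Over the other 6 pro-apoptotic members, the difference from Bcl2 ran from -0.14 for Bcl2l11 to 0.04 for Bok, all well below the value for Bax.

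**Figure D4:**
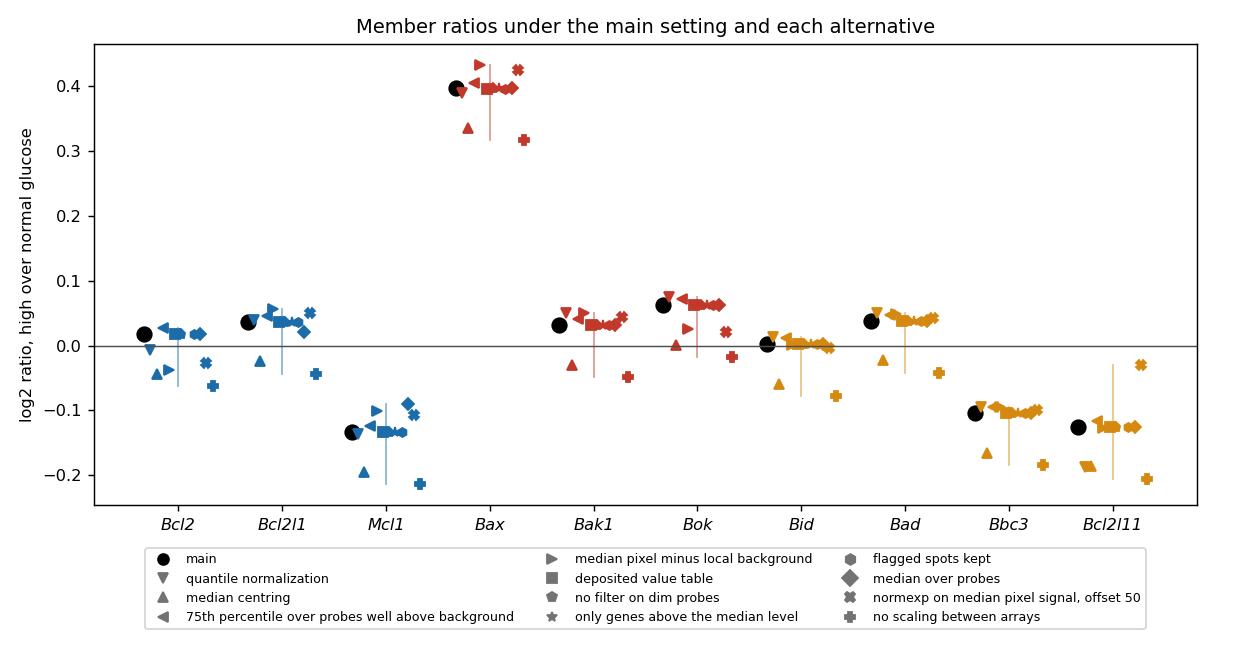
Log2 ratio (high over normal glucose) of each member under the main setting (black) and up to 11 alternatives. Bax stays between 0.32 and 0.43, Mcl1, Bbc3 and Bcl2l11 stay below 0, and the other 6 members have values on both sides of 0, in part because the scaling settings shift all genes together.

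Of 17 other Bcl2 family genes listed, 15 were on the array and 11 were measured, with a median log2 ratio of 0.02. By the brightest probe 0 of 11 were past 1.2-fold, against 12.3% of all measured genes. Bcl2l10, Bik, Hrk and Bcl2l14 were not well above background in either pool. Pmaip1, also called Noxa, a BH3-only protein that neutralises Mcl1, had the largest ratio in size, with 8876 in high and 10306 in normal glucose and a log2 ratio of -0.22. Bnip2, a BNIP family scaffold protein, had 46083 in high and 41588 in normal glucose and a log2 ratio of 0.15, but its other probe gave -0.28. Bcl2l15 had a log2 ratio of 0.12 at its brightest probe, and its 2 other probes lay on opposite sides, at -0.47 and 0.32.

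Bax, Bbc3 and Pmaip1 are textbook targets of p53 and had log2 ratios of 0.40, -0.10 and -0.22, that of Bbc3 below its modelled error of 0.20. The mRNA of p53 itself, Trp53, had 628 in high and 569 in normal glucose, a log2 ratio of 0.14. Mdm2, the ligase that p53 induces and that degrades it, had 81644 in high and 87659 in normal glucose, a log2 ratio of -0.10. The activity of p53 cannot be read from the mRNA of these few genes, and its part in the Bax ratio was not tested.

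All 22 genes of the mitochondrial pathway and caspase list were measured. Not all of them act after the family, since the list includes Casp8, whose product cleaves Bid. By the brightest probe of each, the median log2 ratio was 0.02, with 12 above 0 and 10 below. Of the 22 genes 0 were past 1.2-fold, against 12.3% of all measured genes. Dffa, the inhibitor of the apoptotic DNase, had 0.07 at its brightest probe, but its 2 other probes gave 0.21 and 0.70. Casp1, the inflammatory caspase, had 202 in high and 175 in normal glucose. Its log2 ratio of 0.21 shrank to 0.10 when read from median pixels. Cycs, cytochrome c, and Apaf1, the apoptosome scaffold, had 0.08 and -0.004, and Casp9, the caspase it activates, had -0.007. The 2 other Cycs probes gave 0.05 and 0.40. The choice of these 3 genes was made with their values known.

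Of the inhibitors of apoptosis 8 of 10 were measured, with a median of 0.04; Birc7 was above background on the high glucose array alone and Naip6 on neither. Birc5, or survivin, was the only one past 1.2-fold. Of all measured genes 6.82% were at least 1.2-fold higher, and 2.58% of those with mean signals from 1024 to 8192, where Birc5 lay. This gene also works in chromosome segregation at mitosis. It had 8800 in high and 7011 in normal glucose, a log2 ratio of 0.33, and its 2 other probes gave 0.23 and 0.28. Naip5 had 51030 in high and 45433 in normal glucose and a log2 ratio of 0.17, though Naip genes are near copies of each other and a probe may read several. Xiap, the direct caspase inhibitor, had -0.09, a gene picked with its value known.

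Of the death receptors and adaptors 9 of 12 were measured, with a median of -0.07. Of the 9 ratios 7 were below 0, against 53% over all measured genes. The ligand genes Fasl, Tnf and Tnfsf10 were not well above background in either pool. Tnfrsf25 (death receptor 3) had 155 in high and 193 in normal glucose, a log2 ratio of -0.32. It was the only one past 1.2-fold by the brightest probe. Of all measured genes 5.5% were at least 1.2-fold lower, and 6.74% of those with mean signals from 128 to 1024, where Tnfrsf25 lay. From median pixels its ratio was -0.26, just short of 1.2-fold. Cflar, a caspase-8 inhibitor, had 0.01, and its 2 other probes gave -0.23 and 0.29. Tnfrsf10b, the receptor for the ligand TRAIL, had 15952 in high and 17645 in normal glucose, a log2 ratio of -0.15.

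Among 25 regulators of family members, all were measured and the median was -0.02. Of these 0 were at least 1.2-fold higher and 3 at least 1.2-fold lower, against 6.82% and 5.5% of all measured genes. Mapk8 encodes the stress kinase JNK1, which phosphorylates Bcl2 and Bcl2l11. It was the one gene past 1.5-fold, where 1.19% of all measured genes were at least that much lower. It had 62.0 in high and 104 in normal glucose, 1.67-fold lower with a log2 ratio of -0.74. Its 2 other measured probes gave -0.54 and -0.21, so all 3 had the same sign, but the signals were dim. Foxo3, a transcription factor that induces Bcl2l11 and Bbc3, had 35.0 in high and 45.4 in normal glucose. Its log2 ratio of -0.37 was -0.18 from median pixels. Mapk8 and Foxo3 lay below a signal of 128, where 19.3% of measured genes were at least 1.2-fold lower. The third was Gsk3b, a kinase that marks Mcl1 for destruction, with 10749 in high and 13365 in normal glucose and a log2 ratio of -0.31, but its 2 other probes gave -0.08 and 0.11.

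**Figure D5:**
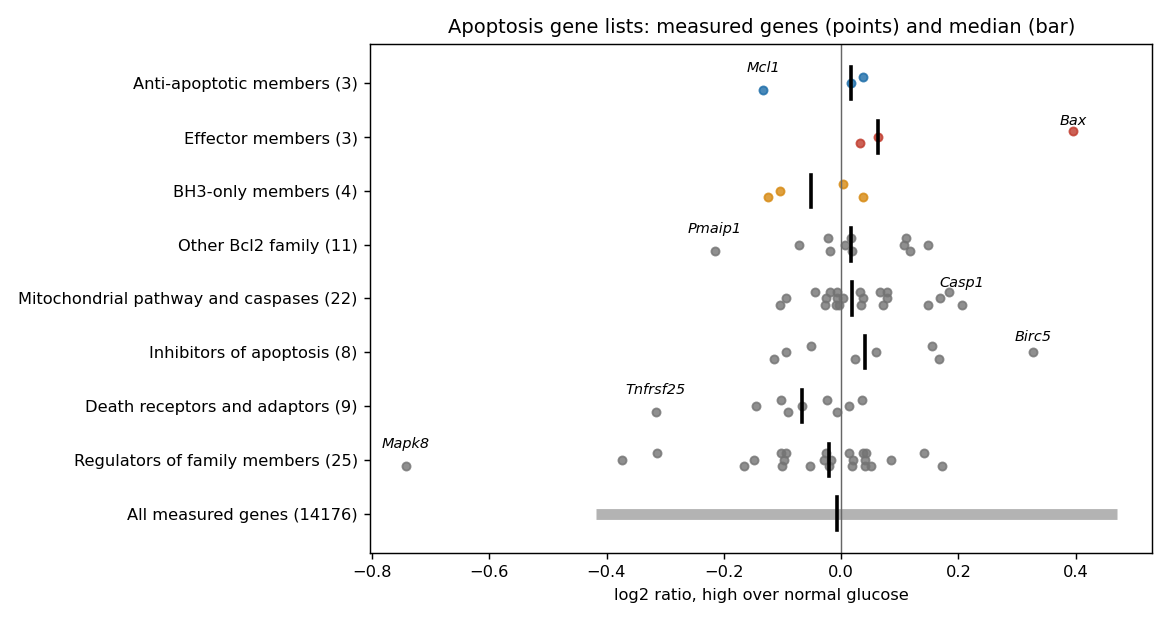
Log2 ratio (high over normal glucose) of measured genes in the 3 member groups and 5 further apoptosis lists, one point per gene, with a black bar at each median and the central 95% of all measured genes as a grey bar; the number measured stands in brackets. Every list median lies between -0.07 and 0.06, and Mapk8, at -0.74, lies farthest from its list.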

How the data were processed

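Per the file headers, the authors' deposited intensity values came from Agilent Feature Extraction 11.5.1.1 (single-colour Cy3), whereas the submitters' processing notes name version 9.3.2.1. The deposited processed signal is background-subtracted and detrended within each array and is not scaled between arrays. The authors also deposited 0 or 1 flags per spot for background, saturation and outliers. The authors' deposited value table matched it for all 13 member probes within a relative tolerance of 0.0001.

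Probes were named by RefSeq accession. Outlier spots were left out, spots of a probe averaged, arrays scaled to their 75th percentile, and log2 ratios taken. A probe counted as measured when at least 0.5 of its spots were well above background and none was saturated on both arrays; a gene was its brightest measured probe. Repeat probes had at least 8 spots. Calculations used Python 3.11.15 and pandas 2.3.3. For normexp, limma 3.58.1 in R 4.3.3 was used with an offset of 50. Steps were tested on simulated data. Per the file headers, slide and scan time were shared by the arrays. With 1 array per group no test was run, and the number of arrays limits the precision.

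In each list the 2 largest ratios and any gene past 1.5-fold were named, except 1 gene that is not reported here; others are said to be chosen after their values were seen or bear on a member. Members and lists were chosen with earlier results of these data known. Both arrays' files hold no mean spot signal and no gene name column, so normexp used the median spot signal and naming by that column was not run.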

Additional observations from a re-analysis of the deposited data

How the results depend on the processing

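Of 11 alternatives, 2 were added after the data were seen, normexp on median pixels and no scaling between arrays. Bax was the only member past 1.2-fold under all 11, with log2 ratios of 0.34 with median centring, 0.43 from median pixels and 0.32 without scaling. Several of the 11 could hardly move it, because Bax has 1 bright probe. The dim filter, the cut at the median level and the median over probes left its ratio unchanged at 0.40. The deposited table and the kept flagged spots use the same Bax signal and gave 0.40 as well. The anti-apoptotic median turned to -0.044 with median centring, -0.037 from median pixels, -0.048 among genes above the median level, where Bcl2 and Bcl2l11 drop out, -0.028 with normexp and -0.063 without scaling. The pro-apoptotic median turned to -0.029 with median centring and -0.049 without scaling. Both of these scalings shift all genes alike, with an all-gene median of -0.07 and -0.09. The pro-apoptotic minus the anti-apoptotic median was above 0 in each setting, at 0.063 from median pixels and 0.083 among genes above the median level. In the main setting it was Bak1 minus Bcl2, 0.01, which is 0.05 times its modelled error of 0.29. A shift of a whole array cancels in it, so median centring and no scaling could not change it, and its constant sign carries little weight. Bax minus Bcl2 became 0.47 from median pixels and 0.45 with normexp, and Bax minus Mcl1 lay between 0.49 and 0.53. Genes at least 1.2-fold higher and lower, 967 and 779, were 2303 and 2039 without the filter on dim probes, 146 and 76 among genes above the median level, 547 and 484 with normexp, 709 and 1190 with median centring and 639 and 1374 without scaling. The higher share of these calls was 55.4%, and 37.3% with median centring, 31.7% without scaling, 44.8% from median pixels and 65.8% among genes above the median level. Without the dim filter more genes entered, 20883 in place of 14176, and among genes above the median level fewer did, 7088. Median centring and no scaling kept the same 14176 genes but shifted every log2 ratio by -0.061 and -0.080, which moved the counts. For the other differences the cause was not tested. Low signal over background limits what can be read for Bcl2l11, whose log2 ratio was -0.03 with normexp and -0.13 from median pixels minus background. The normexp setting adds an offset of 50 to each signal, which draws the ratios of dim probes towards 0. No replicate could be left out, since each group has 1 array.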
